A study of Caenorhabditis elegans with 3 samples.

Results

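The gene mdl-1 (WBGene00003163) and the MML-1 binding sites around it in Caenorhabditis elegans were examined in a window of 32 kb on chromosome X, chrX:6730000-6762000 in the ce11 build. The gene and its window were selected on the measured signal and number of sites, so the number of sites and their ranks are a description and were not tested. All regions with a summit in the window were taken. The window held 10 of the 195 reproducible peaks of the series and 32 of the 30000 regions of the pooled list. It held 35 of 30000 regions of replicate 1, 35 of 30000 of replicate 2 and 28 of 27021 of replicate 3.

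Chromatin immunoprecipitation followed by sequencing (ChIP-seq) recovers the DNA to which a protein is bound. All 3 biological replicates came from whole L3 larvae, sexes pooled, of 1 strain, OP198, which carries unc-119(ed3) III and the integrated transgene wgIs198. The labels describe the tagged protein as eGFP-mml-1, that of replicate 3 also as a GFP-FLAG fusion at the C terminus, and give the antibody target as mml-1. The larval age is given as unknown, the driving promoter was not in the sources used here, and no tissue was separated, so binding in different cell types is averaged. Replicates 1 and 2 share a stock centre as source and a fragment size range, and replicate 3 came from the submitting laboratory and is labelled with sonication. There was no second condition, and the lists give no read totals, so the depth behind each value is unknown.

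MML-1 is the worm protein of the Mondo family, transcription factors with a basic helix-loop-helix leucine zipper that in mammals respond to sugar phosphates. It pairs with MXL-2, a Max-like partner, and such pairs bind the E-box CACGTG. MDL-1 is the worm counterpart of the mammalian Mad proteins, which oppose Myc, and it pairs with MXL-1, another Max-like protein. In worms the pairs MML-1 with MXL-2 and MDL-1 with MXL-1 have been described as having opposite effects on lifespan.

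The site with the highest signal lay just upstream of mdl-1, and its sequence is shown as the promoter that the strongest site occupies. The stretch is chrX:6742101-6742350 (ce11, + strand, RefSeq sequence of WBcel235), the 250 bases before the annotated start of mdl-1. The only CACGTG is in capitals, and the summit lies at base 119 of the stretch.
mdl-1 promoter: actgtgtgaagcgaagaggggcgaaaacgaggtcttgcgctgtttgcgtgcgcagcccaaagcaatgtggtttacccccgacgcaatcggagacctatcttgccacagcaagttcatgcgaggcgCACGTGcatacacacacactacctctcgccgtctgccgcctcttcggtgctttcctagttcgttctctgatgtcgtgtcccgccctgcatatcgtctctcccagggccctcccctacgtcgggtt
Of 19973 protein-coding genes, 987 or 4.94% held CACGTG on either strand in a stretch of the same length and position.

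The window held 9 CACGTG hexamers within 100 bp of the summit of a reproducible peak. They are shown in RefSeq sequence of WBcel235 with 12 bases on each side, on the + strand and from left to right, because they are the sequence that most of the sites share. The capitals mark the hexamer, and each name gives the summit's distance in bp from the start of mdl-1.
Peak -4584, chrX:6737735-6737764: atgcatgggatgCACGTGcgccagcagatg
Peak -1103, chrX:6741232-6741261: gccaagctcctgCACGTGaggcttcaaaat
Peak -1103, chrX:6741293-6741322: ctttgccactttCACGTGaactatttttgc
Peak -541, chrX:6741797-6741826: tgtgaggaaattCACGTGggtattccccga
Peak -132, chrX:6742214-6742243: tcatgcgaggcgCACGTGcatacacacaca
Peak +663, chrX:6742970-6742999: gtaagtttcatcCACGTGcgtctagcgtgt
Peak +1677, chrX:6744025-6744054: ccacatgttgatCACGTGtcgccgatcagt
Peak +7184, chrX:6749507-6749536: ctcttgcttttgCACGTGcctgtttctcgc
Peak +7924, chrX:6750267-6750296: aaaacatagaccCACGTGtgggtgcgtccg

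Peaks at the locus were named by the position of the summit relative to the start of mdl-1, which is annotated at 6742351 on the + strand and ends at 6743899. The 10 reproducible peaks ran over 13562 bp from the first summit to the last, with 5 on either side of the start. Neighbouring summits were 409 to 3825 bp apart, with a median of 1014 bp. Of all pooled regions in the series, 0.65% were reproducible peaks, against 10 of 32 in the window, a share that the choice of the locus fixed. The window makes up 0.0319% of the assembled chromosomes and held 5.13% of the reproducible peaks, and 10 of the 54 on chromosome X. The nearest reproducible peaks outside it lay 650.217 kb to the left and 65.216 kb to the right of the mdl-1 start.

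**Figure D1:**
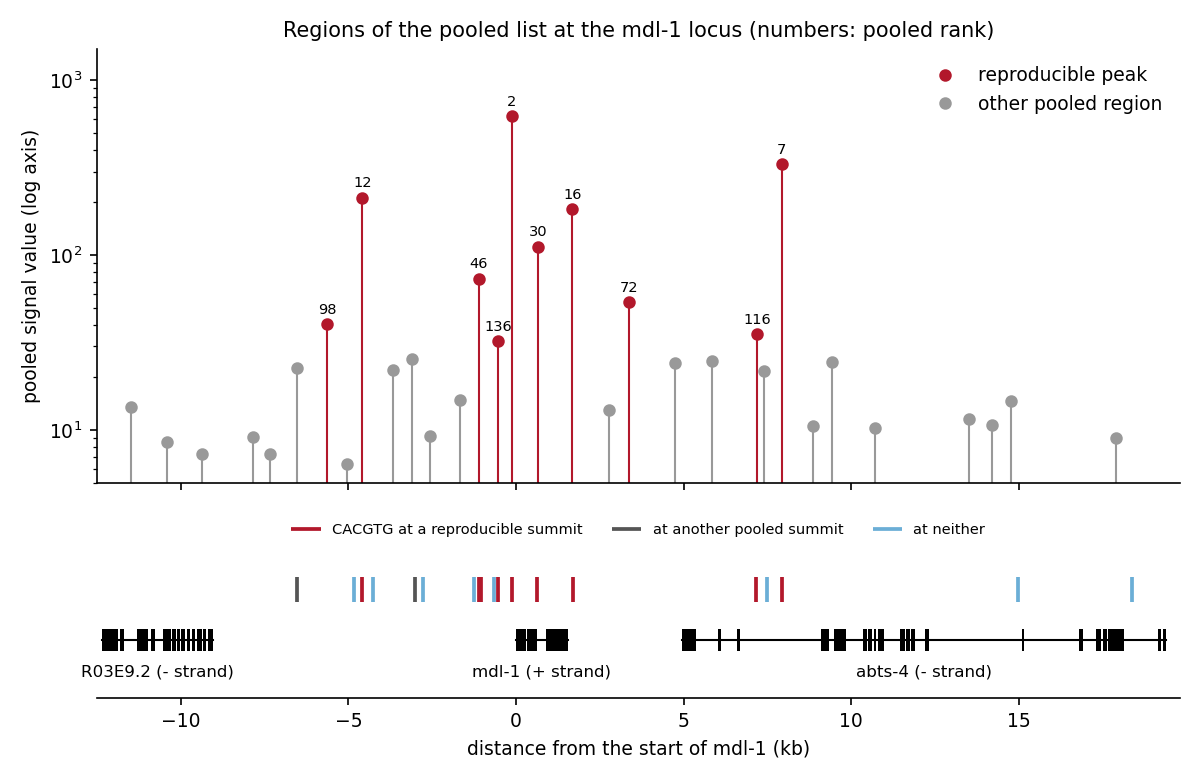
Signal of the 32 pooled regions of the window (upper panel, log axis) against distance from the start of mdl-1, with CACGTG hexamers and exons of the protein-coding genes (boxes) below. The 10 reproducible peaks cover -5638 to +7924 bp, and the 4 highest, of pooled rank 2, 7, 12 and 16, stand at -132, +7924, -4584 and +1677.

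The signal value of a region is the authors' own, and rank 1 is the highest signal of a list. The summit of the peak at -132, chrX:6742090-6742411, lay in intergenic sequence in front of mdl-1, and the right end of the region reached into the first exon. The peak had a pooled signal of 620.8, rank 2 of the series. It ranked 2, 3 and 1 in replicates 1, 2 and 3, with signals of 278.1, 150.1 and 187.9 on the scale of each list. Its summits in the replicates fell 0 to 7 bp from the pooled summit, the least scatter of the 10 peaks (SD 3.61 bp, n = 3). The hexamer lay 9 bp from the summit, and GC content within 100 bp of the summit was 57.7%, the highest of the 10 peaks.

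The peak at +7924, chrX:6750162-6750441, was second in the window and lay in an intron of abts-4 (WBGene00019844), a gene of the anion bicarbonate transporter family on the - strand. It had a pooled signal of 329.5, rank 7, and ranked 8, 8 and 5 in replicates 1, 2 and 3. The intron is number 17 of the transcript R03E9.3a.1, and the summit lay 11463 bp downstream of the abts-4 start and 6376 bp beyond the end of mdl-1. A neighbouring peak at +7184, chrX:6749393-6749676, shared this intron, with a signal of 35.3 and rank 116. It ranked 134, 66 and 90 in the replicates, below the +7924 peak in each.

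Upstream of mdl-1, the 9049 bp that separate it from the divergent gene R03E9.2 (WBGene00019843) held the summits of 5 reproducible peaks. The strongest after -132 was at -4584, chrX:6737642-6737912, with a signal of 212.2, pooled rank 12, and ranks of 14, 18 and 7 in replicates 1, 2 and 3. The peak at -1103, chrX:6741106-6741389, had a signal of 73.1, rank 46, and ranked 64, 142 and 34. It was the only peak of the window with 2 copies of CACGTG within 100 bp, 55 bases apart, the nearer 2 bp from the summit.

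The remaining upstream peaks were recovered less evenly. The peak at -5638, chrX:6736571-6736854, had a signal of 40.2, rank 98, and ranked 79 and 69 in replicates 1 and 3 but 19658 in replicate 2. The peak at -541, chrX:6741738-6741815, had the lowest signal of the 10, 32.0 at rank 136, and at 78 bp was the narrowest of them. It ranked 160 in replicate 1 and 1794 in replicate 2, and replicate 3 had no summit within 200 bp, the nearest being 416 bp away. The match in replicate 2 lay 127 bp to the left of the pooled summit, outside the 78 bp region. On that side another CACGTG, at -657, lay 114 bp from the pooled summit, so this match may not be the same site. CACGTG lay 1 bp from the pooled summit at -541, and -5638 had none within 100 bp.

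Within mdl-1, 1 reproducible peak had its summit, in intron 2 of 2 at +663, with a signal of 111.6 and rank 30. Its region, chrX:6742916-6743082, began in the coding exon before that intron. The peak ranked 24, 22 and 38 in replicates 1, 2 and 3. Its CACGTG began at base 13 of the 289-base intron, close to the splice donor, and the summit lay 30 bp further into the intron. No reproducible summit lay in an exon of mdl-1, of abts-4 or of R03E9.2.

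Downstream of mdl-1, 2 reproducible peaks lay in the 3396 bp before the end of abts-4. The peak at +1677, chrX:6743917-6744150, had its summit 129 bp past the annotated end of mdl-1 and within the non-coding gene R03E9.10 (WBGene00201660) on the - strand. Its signal was 182.5, rank 16, and it ranked 19, 19 and 11 in the replicates. The peak at +3359, chrX:6745568-6745851, had a signal of 53.8, rank 72, and ranked 56, 72 and 103. It had no CACGTG within 100 bp and 1 copy of CACATG, a related E-box.

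The replicates were compared to ask how evenly the sites were recovered, counting a peak as recovered when a region among the first 1000 of a replicate had its summit within 200 bp. By this count 10, 8 and 9 of the 10 peaks were recovered in replicates 1, 2 and 3, and 8 of 10 in all 3 replicates. Over all 195 reproducible peaks the share in all 3 replicates was 57.4%, and over the 185 outside the window it was 56.2%. Among the first 100 of every replicate were 5 of the 10 peaks, those at -4584, -132, +663, +1677 and +7924, against 26.2% of all reproducible peaks. These measures come from the same lists that chose the locus, so no test was made. Within the pair of replicates 1 and 2, which share a source, 8 of 10 peaks were recovered in both, against 129 of the 185 elsewhere and 137 of all 195.

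**Figure D2:**
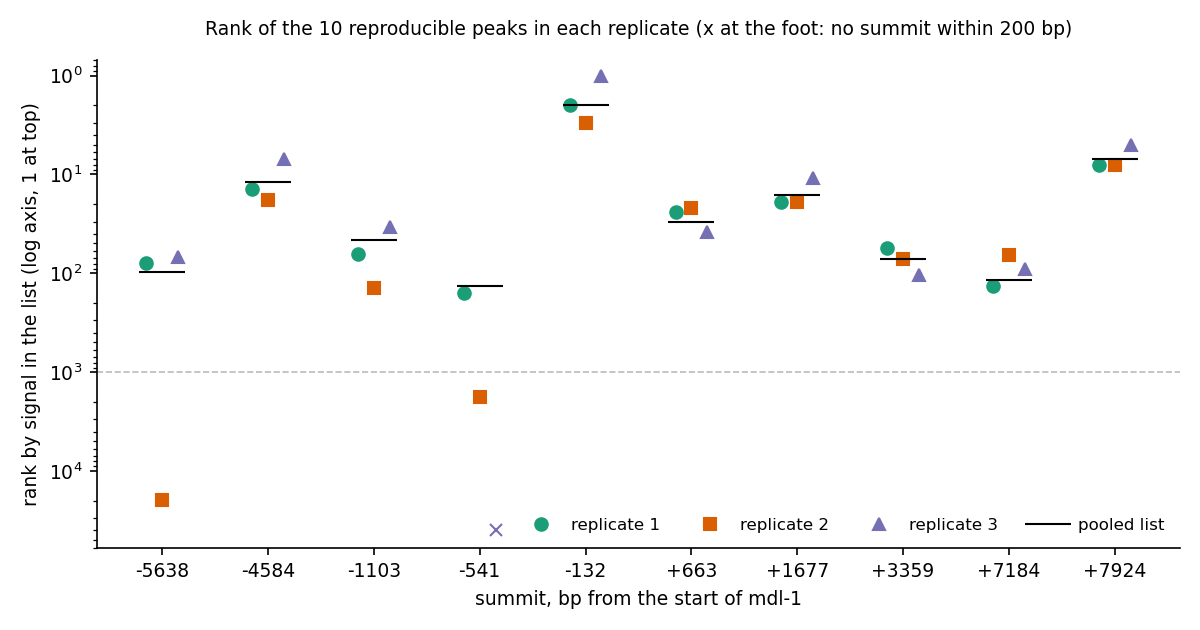
Rank by signal of each reproducible peak of the window in replicates 1, 2 and 3 and in the pooled list (horizontal lines), on a log axis with rank 1 at the top and a dashed line at rank 1000. In 8 of the 10 peaks every replicate lies above the line, and the exceptions are -5638, at 19658 in replicate 2, and -541, at 1794 in replicate 2 and without a match in replicate 3.

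Each replicate placed 8 regions of the window among its first 100 and 4 among its first 20. The 8 were not the same sites in each list. In replicate 2 they included the summits at -3007 and at the abts-4 intron between +7184 and +7385, and did not include -5638 or -1103. The order of the 4 strongest peaks, -132, +7924, -4584 and +1677, was the same in all 3 replicates and in the pooled list, and the order of the others varied.

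Because each list has its own scale, the signals were also expressed as a percentage of that of the -132 peak in the same list. The +7924 peak had 53.4%, 56.5% and 54.7% in replicates 1, 2 and 3, or 54.9% ± 1.53 (SD, n = 3). The -4584 peak had 30.02%, 25.7% and 49.1%, or 34.9% ± 12.5 (SD, n = 3), and the +1677 peak had 27.2%, 23.9% and 37.4%, or 29.5% ± 7.03 (SD, n = 3). The ranges of -4584 and +1677 over the replicates overlapped, but within each of the 3 lists -4584 was the higher. The highest values of both came from replicate 3. The +663 peak had 20.4% ± 2.89 (SD, n = 3), below every value of +1677.

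Neighbours among the weaker peaks overlapped, while some peaks further apart in the order did not. The -1103 peak had 8.69%, 7.20% and 19.6%, or 11.8% ± 6.79 (SD, n = 3), and its value in replicate 3 was above that of +663 in the same replicate, 17.3%. The peaks at +3359, +7184 and -5638 had means of 9.27% ± 1.01, 8.08% ± 2.46 and 6.75% ± 4.32 (SD, n = 3 each). The -541 peak had 4.72% ± 0.532 (SD, n = 2), without replicate 3 and with the replicate 2 match 127 bp from its summit. From +663 down to -541 the ranges of all neighbouring pairs in this order overlapped. Every value of +663 was above every value of +3359, 8.15% to 10.1%. Both values of -541, 5.10% and 4.35% in replicates 1 and 2, were below every value of -1103, +3359 and +7184.

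**Figure D3:**
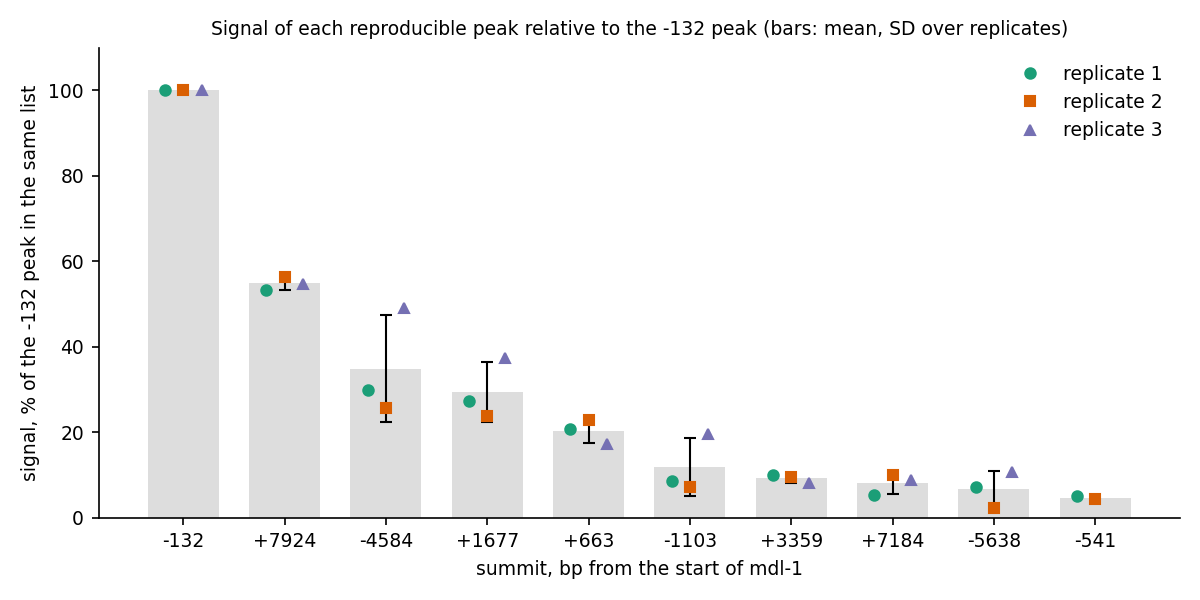
Signal of each reproducible peak as a percentage of the -132 peak in the same replicate list (points), with the mean (bars) and the SD over the replicates (whiskers, n = 3, or 2 at -541). The -132 peak is 100% by construction, the +7924 peak is the next at 54.9%, and the last 5 peaks have means below 12%.

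The rule for the window uses no sequence. Of the 10 reproducible peaks, 8 or 80.0% had CACGTG no further than 100 bp from the summit (95% exact Clopper-Pearson interval 44.4 to 97.5), against 108 of the 185 elsewhere, or 58.4% (50.9 to 65.6). The share over all reproducible peaks, these 10 included, was 59.5%, which lies inside the interval of the window. The 10 peaks are neighbours at 1 chosen locus, and the difference was not tested, so none was read. Among the regions of the pooled list that overlap no reproducible peak, 2 of the 21 in the window and 4.31% of all had the hexamer. The nearest copy lay at a median of 10 bp from the summit, from 1 bp at -541 to 30 bp at +663. These intervals reflect only how many regions were counted.

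The reference sequence of the window held 19 copies of CACGTG, or 5.94 per 10 kb, against 1.38 per 10 kb on the rest of chromosome X and 1.77 per 10 kb in the rest of the genome. Of the 19, 9 lay within 100 bp of a reproducible summit, or 47.4%, against 1.31% of 2447 on the rest of chromosome X. Over the whole genome, 0.79% of 17729 copies did. A further 2 copies lay within 100 bp of another pooled summit, at -6549 and -3111, and 8 lay near no pooled summit. With 10 peaks in 32 kb, a copy of any sequence in the window is more often near a peak, and the part of this in the share was not tested.

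**Figure D4:**
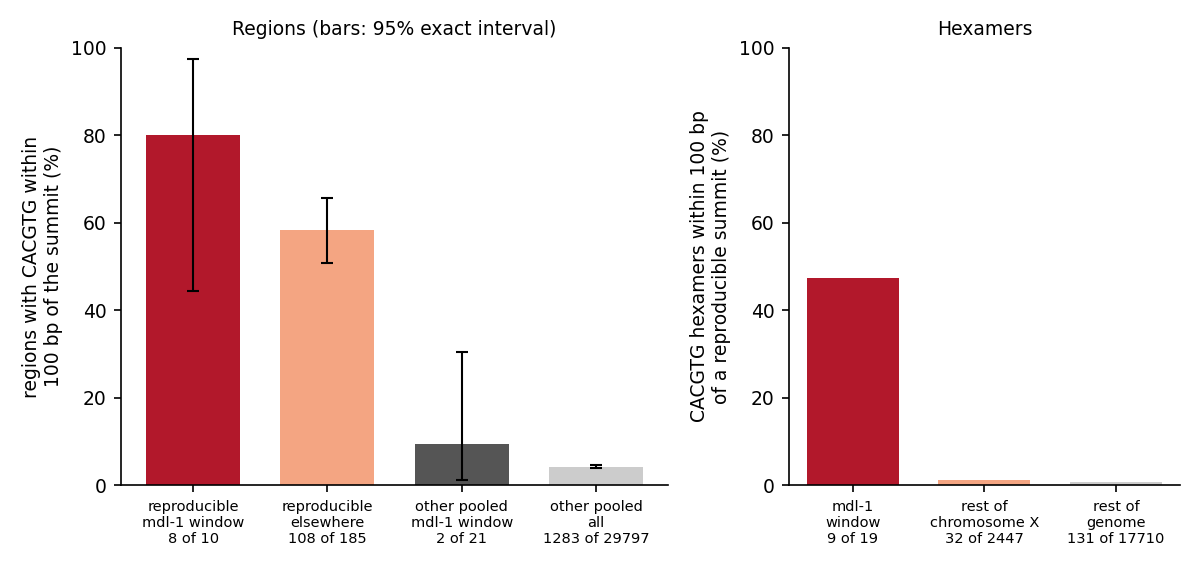
Left, share of regions with CACGTG within 100 bp of the summit (whiskers, 95% exact intervals) for reproducible peaks of the window and elsewhere and for other pooled regions of the window and of the whole list. Right, share of all CACGTG hexamers within 100 bp of a reproducible summit, 47.4% in the window against 1.31% on the rest of chromosome X and 0.740% in the rest of the genome.

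The 3 copies closest to a reproducible summit among those that lay further than 100 bp from it are shown for contrast, with 12 bases on each side and the hexamer in capitals. They lay 114, 163 and 242 bp from the summits at -541, -1103 and -4584. The copy at -657 is on the side where replicate 2 had its match to the -541 peak, so it may not lack signal in that replicate.
Hexamer at -657, chrX:6741682-6741711: caaaattgaagaCACGTGatgaattgtaac
Hexamer at -1268, chrX:6741071-6741100: ttccagaaaaaaCACGTGgtacacaaaaca
Hexamer at -4828, chrX:6737511-6737540: acacttggcttcCACGTGaccatctgcgcg
The base just 5′ of CACGTG was read on both strands, since the hexamer is its own reverse complement. At the 9 copies near a reproducible summit it was G at 8 of 18 flanks, or 44.4%, and T at 5. At the other 10 copies of the window it was G at 1 of 20 and T at 9. Those at -6542 and -3024 lay within 100 bp of another pooled summit, so the 10 are not a set without signal. Over the genome, G made up 23.6% and T 47.5% of 280 flanks at copies near a reproducible summit, against 13.3% and 23.4% at the other copies. In the window the peaks -4584, -132 and +7184 had G on both sides.

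In mammals, the response elements of Mondo proteins hold a pair of E-box-like hexamers a short fixed distance apart. Pairs of CACGTG or CACATG, on either strand and in any combination, were therefore searched with 5 bases between them, a search chosen after the sequences had been seen. Among the 10 reproducible peaks 2 had such a pair within 100 bp, +1677 and +7924. The share was 10.8% of all reproducible peaks, and 10.3% of those outside the window, against 0.0503% of other pooled regions. None of the 21 other regions of the window had one. The pairs are shown with 6 bases on each side and both hexamers in capitals.
Peak +1677, chrX:6744020-6744048: cgcagcCACATGttgatCACGTGtcgccg
Peak +7924, chrX:6750242-6750270: ggcaagCATGTGaaacgCACATGagaaaa
At +1677 the pair includes the CACGTG that lay 11 bp from the summit. At +7924 it is made of CACATG on both strands, and CACGTG follows 14 bases further. Of gaps from 0 to 20 bases, 5 was the most frequent over all reproducible peaks, with 21 peaks, and the next most frequent gap had 5 peaks. The -541 peak held CATGTG, the reverse complement of CACATG, and CACGTG 8 bases apart.

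CACATG was found in 4 of the 10 peaks, at -541, +1677, +3359 and +7924, against 30.8% of all reproducible peaks. The hexamers CAGCTG and AGAGAC, searched like the others on both strands, were each found in 1 of the 10. Both were at -5638, where neither E-box above was found. In the reproducible peaks elsewhere CAGCTG was found in 10.3% and AGAGAC in 39.5%. The median GC content within 100 bp of the summit was 45.3% at the 10 peaks and 44.3% at those elsewhere, against 36.8% in other pooled regions.

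The other pooled regions of the window, 22 in number, ranked from 206 to 26148, with a median rank of 2815.5. The lowest reproducible peak of the window had a signal of 32.0, and the highest of the others, at -3111, had 25.4. At ranks 196 to 300, just below the reproducible list, the pooled list had 105 regions, and 7 of them lay in the window. They were at -3111, +5858, +9426, +4728, -6549, -3682 and +7385. The region at +7385 overlapped the reproducible peak at +7184 and is not among the 21 counted as separate.

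Of these 7 regions, the 6 other than +7385 had a rank past 1000 or no match in at least 1 replicate. The region at -6549 had CACGTG 9 bp from its summit and ranked 153 and 116 in replicates 1 and 3, with no summit within 200 bp in replicate 2. The region at -3111 had CACGTG 89 bp from its summit and ranked 5473, 56 and 256 in replicates 1, 2 and 3. Its match in replicate 2 was the summit at -3007, 104 bp away on the side of that hexamer. The region at +4728 held no CACGTG. It ranked 294 and 110 in replicates 1 and 2 and 10478 in replicate 3, where the match lay 196 bp from its summit. The region at +9426 ranked 267, 2581 and 2880, and that at +5858 ranked 834, 1879 and 571. At -3682 the ranks were 175, 831 and 9829, the last for a match 181 bp from the summit.

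The region at +7385 had matches of rank 115, 66 and 90 in replicates 1, 2 and 3, but the lists did not separate it from the peak at +7184 alike. Replicate 1 had summits at both +7184 and +7385, within 18 bp and 13 bp of the pooled summits. Replicate 2 had a single region between them, rank 66, 143 bp from one and 58 bp from the other. Replicate 3 also had a single region, rank 90, 14 bp from the summit at +7184 and 187 bp from that at +7385. The match of the +7184 peak in replicate 2 is thus nearer to its neighbour.

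Of the 21 separate other regions, 6, 4 and 5 had a match among the first 1000 of replicates 1, 2 and 3, and 9 in at least 1 of them, against 7.04% of all such regions of the pooled list. None of the 21 had one in all 3 replicates. The locus was chosen on its signal and number of sites, and the regions compared were not matched by rank. The difference in share is therefore a description and was not tested. The region at -2570 ranked 132 in replicate 3, 18598 in replicate 1 and 9238 in the pooled list, and replicate 2 had no summit within 200 bp. The region at -10414, in a coding exon of R03E9.2, ranked 356 in replicate 2 and had no match in replicates 1 or 3. No reproducible peak lay within R03E9.2, which holds 3 pooled regions, and abts-4 held 11 pooled regions, of which 2 were reproducible.

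At the edges of the window, the first region inside on the left, at -11496, had rank 1646 and signal 13.5, and the last outside it, at -13058, had rank 3327 and signal 11.7. On the right, the last region inside, at +17900, had rank 9890 and signal 9.04, and the first outside, at +20285, had rank 11042 and signal 8.75. None of these 4 is a reproducible peak, so the bounds of the window do not cut the group of reproducible peaks.

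To find loci with a like pattern, reproducible summits no more than 10 kb apart were chained into clusters, and likeness to mdl-1 was the number of reproducible peaks per cluster over the 3 replicates pooled. The 195 peaks formed 142 clusters, of which 110 held a single peak. The cluster at mdl-1, with 10 peaks, was followed by 1 of 5 peaks on chromosome X whose highest peak was nearest to C49F8.15. Clusters of 4 peaks had T07E3.4 on chromosome III, CC8.2 on chromosome IV and H18N23.2 on chromosome X nearest to their highest peak, at pooled ranks 8, 11 and 20. The first of the clusters of 3 peaks by signal was at F26A3.4. In these 5 clusters 3 of 5, 2 of 4, 2 of 4, 3 of 4 and 1 of 3 peaks had CACGTG, against 8 of 10 at mdl-1. The share over all 195 reproducible peaks was 59.5%.

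Genes of the same transcription factor network were compared by the reproducible peaks within 10 kb of each gene. There were 10 at mdl-1, 5 at mxl-3 (WBGene00003511), which encodes a Max-like protein, and 2 at mml-1 itself, of which the transgene carries a tagged copy. There were 0 at mxl-1, which encodes the partner of MDL-1, at mxl-2, and at hlh-30, which encodes the worm counterpart of the mammalian factor TFEB. The best pooled ranks were 2 at mdl-1, 21 at mxl-3, 151 at mml-1, 432 at hlh-30, 460 at mxl-1 and 11817 at mxl-2. The 5 peaks at mxl-3 are those of the cluster named by C49F8.15. The number of pooled regions within 10 kb was 26 at mdl-1, 23 at mml-1 and 21 at mxl-3. At hlh-30, mxl-1 and mxl-2 it was 20, 9 and 5. The stretch searched grows with the length of the gene, so not all of these counts are on a like basis. It was nearly the same at mdl-1, mxl-1, mxl-2 and mxl-3. It was longest at hlh-30, which runs from 4014793 to 4034951, against 11244839 to 11245926 for mxl-1. The share of all genes with a reproducible peak within 10 kb was not counted, so the comparison is a description. The series had 195 reproducible peaks in 142 clusters, against 19973 protein-coding genes. A count of 0 at a gene was therefore not read as a result about that gene.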

How the data were processed

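ChIP-seq regions of 3 biological replicates were read as deposited. Per the file names in the labels, the authors deposited a list of peaks and background for each replicate, a list called on the replicates pooled, and the peaks kept after thresholding by the irreproducible discovery rate (IDR), which scores how alike ranks are between replicates. These peaks, named optimal by the authors, are called reproducible. The word does not mean that every replicate held each of them. At any rank, 169 of the 195 had a match within 200 bp in all 3 replicates. Lists were in ce11, the main build, and ce10. Which caller, aligner and IDR threshold were used is not stated there. The labels name a possible control, not analysed here.

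The deposited signal value of each region has the scale of its own list. The deposited −log10 q-value was at its highest in 279 pooled regions and was not used to rank. The deposited summit was used to place regions. Regions have no read totals, so depth is unknown.

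Sequence and annotation came from WBcel235 (the ce11 assembly; RefSeq genome, Ensembl release 115). Coordinates are 1-based. Regions in the window were ranked by signal. Hexamers were counted when whole within 100 bp of a summit. Summits within 200 bp were matched, each to the nearest. Intervals are exact at 95%. No test was made. The counting steps were tested on simulated data. Alternatives varied the build, list, window, distances, rank limit and replicates.

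The members and lists were chosen with earlier results of these data known. Genes were named by rule: all protein-coding genes of the window, 6 genes of the transcription factor network, and the 5 clusters with the most peaks after mdl-1. Versions were SciPy 1.17.1 (intervals), matplotlib 3.10.9 (figures), pandas 2.3.3, numpy 2.4.6 and Python 3.11.15.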

Additional observations from a re-analysis of the deposited data

How the results depend on the processing

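Of the alternatives tried for the 6 counts at mdl-1, 1 moved a count by more than 1.5 times: with CACGTG required within 50 bp of the summit, 1 other pooled region of the window had it, against 2 within 100 bp and 3 within 200 bp. The ce10 lists, searched with the same coordinate numbers, gave 10 reproducible peaks and 33 pooled regions, against 10 and 32 in ce11. The same numbers may not mark exactly the same stretch in both builds. The 98 reproducible peaks of highest signal held 8 of the window, of which 6 had CACGTG. Peaks recovered in every replicate used numbered 8 to 9 with 1 replicate left out, and 7 to 9 under the other alternatives. The distances for the pair of hexamers were varied after seeing the data. No paired analysis was possible because all 3 samples belong to 1 group. Without read totals, depth could not be compared where 1 replicate missed a region or ranked it low.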
